A study of Mus musculus with 58 samples.

Results

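The genes described here are 10 members of the Atf4 stress and amino acid programme in mouse microglia: Atf4, Ddit3, Trib3, Asns, Sesn2, Psat1, Phgdh, Shmt2, Mthfd2 and Impact. They were chosen by symbol, with earlier results of these data known. Impact was selected on a measured value, its lower level in wild-type microglia after the Tfe3 ASO. All 10 are among the 24940 genes of the age series. The tables of the ASO libraries hold 8 of them among 10277 genes (wild-type) and 10589 genes (SgshKO), without Trib3 and Asns.

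PolyA RNA was sequenced from microglia sorted out of the forebrain of C57BL/6 mice as CD11b+, CD45low and CX3CR1+ cells. SgshKO mice carry a knockout of Sgsh, which encodes a lysosomal enzyme that degrades heparan sulfate. The age series sets wild-type (WT) beside SgshKO mice, with 3 WT and 4 SgshKO libraries from the age of 3 weeks, 2 of each genotype from 4 months, and 4 WT and 7 SgshKO libraries from 8 months. Further WT mice were injected with PBS, with the control named ntc, or with a Mitf, Tfeb or Tfe3 ASO (4 libraries for each). Other SgshKO mice, with 8 libraries per group, had received ntc or the Mitf and Tfe3 ASOs together. An ASO is an antisense oligonucleotide that reduces the transcript it pairs with. A single intracerebroventricular injection was made 14 days before harvest. The labels give neither sex nor the age of the ASO-treated mice, and do not say that libraries came from separate animals, so p-values measure the spread between libraries, which may be technical.

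Atf4 is the transcription factor at the end of the integrated stress response. Kinases such as Gcn2 (amino acid shortage) and Perk (stress of the endoplasmic reticulum) phosphorylate eIF2alpha, which lowers general translation and raises translation of Atf4 mRNA. Atf4 protein then binds C/EBP-ATF response elements beside genes for amino acid synthesis, amino acid transport and stress signalling. Since this control acts on translation, the Atf4 transcript is not a measure of Atf4 protein.

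Of the members, Asns carries the element in its promoter in the form best known from textbooks, so RefSeq promoter windows (GRCm38.p6, from 250 bases before to 50 after the start) were searched on both strands. 9 members have a window, and none is shown for Impact. The letters TGATGNAA occurred in 3.97% of all 32851 windows of this length, and among the members in Asns and Trib3. A second form, TGNTGCAA, was added after the sequences had been seen. It occurred in 3.22% of the windows and among the members in Trib3, Sesn2 and Psat1, and both forms match where the N of each is filled by the other's letter. CACGTG, the E-box core that MiT/TFE factors bind, occurred in 7.15% of windows, and TCATGTGA in 0.986%, but neither was found in a member's window. A match is a description of letters and not a shown binding site. The stretches below are those of the 4 members with a match, printed with it in capitals. Each is read along the gene's own strand, the minus strand of the chromosome in all 4, so the match of Sesn2, which is on the other strand, appears as its reverse complement.
Asns, chr6:7693210-7693252: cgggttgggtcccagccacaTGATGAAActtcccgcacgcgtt
Trib3, chr2:152344066-152344113: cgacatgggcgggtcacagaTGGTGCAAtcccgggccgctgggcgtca
Psat1, chr19:15925168-15925215: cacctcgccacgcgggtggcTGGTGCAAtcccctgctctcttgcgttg
Sesn2, chr4:132510647-132510694: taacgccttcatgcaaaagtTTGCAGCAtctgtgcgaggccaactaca
In Asns the match began 23 bases before the start of its window, in Trib3 33, in Psat1 136 and in Sesn2 218 bases before it. Trib3 also held TGATGTAA on the opposite strand at position 15 after the start. The Asns transcript counted in the age series starts further downstream, at 7693182. Psat1 has a second window, with another start, and that window held no match.

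The depth was 8191508 to 27106584 counts per library for the age series, 14372015 to 30378870 for the WT ASO and 12517838 to 30431437 for the SgshKO ASO libraries. Levels are in CPM, the share of a library's counts scaled to a common total with its TMM factor. Differences are log2 fold changes with their SE and Benjamini-Hochberg adjusted p from edgeR's quasi-likelihood test, with a threshold of 0.05. Sgsh transcripts were still counted in SgshKO microglia, with a lower mean than in WT at each age. They ran from 14.9 to 23.4 CPM at 3 weeks (20.3 to 25.9 in WT) and from 22.9 to 30.3 at 4 months (30.7 to 39.4). At 8 months they ran from 20.1 to 34.7 CPM (31.9 to 59.2 in WT). The ranges overlapped at 3 weeks and 8 months, so this transcript does not check the genotype of a library. The ASO targets did fall: Mitf was at 1.01 to 2.15 CPM after its ASO in WT mice against 34.5 to 50.4 with ntc, and Tfeb at 4.59 to 6.91 against 52.6 to 58.1. Tfe3 was at 34.9 to 40.5 against 192 to 202.4 CPM. In SgshKO mice the combination left 7.51 to 23.2 CPM of Mitf against 60.7 to 82.1, and 75.04 to 87.1 CPM of Tfe3 against 137 to 194.

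Summed transcripts of 10 microglial markers were lower in SgshKO at each age, with no overlap: 49798 to 53627 CPM against 55962 to 57607 in WT at 3 weeks, 30498 to 35438 against 46183 to 51795 at 4 months, and 33265 to 37046 against 41644 to 50585 at 8 months. This sum moved with every genotype difference given below, and its part in them was not tested. Summed transcripts of 10 neutrophil markers, however, reached 431 to 14885 CPM in all SgshKO libraries of 4 and 8 months, against at most 7.68 CPM in WT of the same ages and 30.9 in SgshKO at 3 weeks. Elane, Mpo, Retnlg and Ly6g were at 0 in every WT library of 4 and 8 months. In bulk RNA fewer cells of a type and less RNA per cell cannot be told apart. A list of 15 dissociation-response genes was highest at 4 months, with 24458 to 31264 CPM in WT and 17383 to 19976 in SgshKO, and in replicate 1 of SgshKO at 3 weeks (31051 CPM, against 8086, 10654 and 15360 CPM in the others). At 8 months it was lower in SgshKO (7295 to 11806 CPM) than in WT (13224 to 16182 CPM), and the sum of 10 monocyte and border macrophage markers was higher (79.1 to 131 against 25.2 to 41.9 CPM).

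Of the 10 genes, the pair of serine synthesis genes passed the test between genotypes at every age. Psat1, the phosphoserine aminotransferase of serine synthesis, stood in SgshKO microglia at 3.6 to 5.0 times the WT level, depending on age. Phgdh, the dehydrogenase that commits 3-phosphoglycerate to serine synthesis, was also higher at every age, by less. The Atf4 transcript itself passed the test at no age, and neither did Ddit3, which encodes the Atf4-induced factor Chop.

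Psat1 (chromosome 19, 15905123 to 15925059) had 19.4, 20.04 and 25.5 CPM in the 3 WT libraries of 3 weeks, and 85.8, 64.2, 76.5 and 85.3 CPM in the 4 SgshKO libraries. At 4 months the WT libraries had 20.7 and 24.03 CPM and the SgshKO libraries 104.8 and 76.9 CPM. At 8 months WT had 22.1, 17.7, 33.7 and 30.7 CPM, while the 7 SgshKO libraries ran from 99.6 to 204 with a median of 117 CPM. No WT library reached the lowest SgshKO library at any age. The log2 fold change was 1.85 ± 0.24 (adjusted p = 5.43e-06) at 3 weeks, 2.01 ± 0.31 (4.13e-05) at 4 months and 2.32 ± 0.20 (1.20e-09) at 8 months, with 4.04 times the WT level at 4 months. Within SgshKO, Psat1 rose from 3 weeks to 8 months by 0.74 ± 0.18 (adjusted p = 0.00317). The change of the genotype difference between these ages did not pass (0.48 ± 0.29, adjusted p = 0.360).

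Phgdh (chromosome 3, 98313171 to 98339969) had 34.2, 37.6 and 43.5 CPM in WT and 53.9, 55.9, 66.1 and 60.4 CPM in SgshKO at 3 weeks. It had 30.1 and 27.3 against 50.1 and 46.8 CPM at 4 months. In the 8-month WT libraries it had 29.1, 31.3, 37.2 and 22.8 CPM, and SgshKO ran from 45.7 to 67.6 with a median of 53.02 CPM. The groups did not overlap at any age. The log2 fold change was 0.62 ± 0.14 (adjusted p = 0.00477), 0.76 ± 0.19 (0.00570) and 0.85 ± 0.12 (2.62e-06) in the order of age. Without WT replicate 2 the 4-month difference no longer passed (0.70, adjusted p = 0.0748). The annotation holds a Phgdh pseudogene, Phgdh-ps1, and how reads shared with it were counted is not given in the sources used here.

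Astrocytes are the brain cells best known for serine synthesis, so the levels of 10 astrocyte markers are given beside these genes. Their sum was 159 to 203 CPM in WT and 201 to 288 in SgshKO at 3 weeks, 251 to 282 and 314 to 445 at 4 months, and 292 to 410 and 186 to 320 at 8 months. The sum was thus higher in SgshKO at 4 months, as Psat1 and Phgdh were, with a small overlap at 3 weeks, and at 8 months its highest values were in WT. The part of astrocyte RNA in these differences was not tested. A fit added after the data had been seen left out the 4 SgshKO libraries above 1000 CPM of neutrophil transcripts (both of 4 months, replicates 1 and 3 of 8 months). Psat1 at 8 months was then 2.31 (adjusted p = 6.90e-09) and Phgdh 0.82 (2.69e-05). The SgshKO libraries kept at 8 months still held at least 431 CPM of neutrophil transcripts, against at most 3.68 CPM in WT. This fit therefore does not remove neutrophil RNA, and its part in these differences was not tested.

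The mitochondrial one-carbon enzymes, which move the carbon of serine into formate, showed no such regular pattern. Shmt2 (serine hydroxymethyltransferase of mitochondria) had 28.8 to 31.4 CPM in WT and 26.0 to 42.2 in SgshKO at 3 weeks, and 27.6 to 37.0 against 34.9 to 44.7 CPM at 8 months. It passed at no age (0.24 ± 0.14, adjusted p = 0.382; -0.08 ± 0.19, 0.809; 0.23 ± 0.11, 0.117). Shmt2 and Ddit3 each overlap a gene on the opposite strand (Ndufa4l2 and Mars), and whether reads were counted by strand is not given in the sources used here.

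Mthfd2, the dehydrogenase and cyclohydrolase that follows Shmt2, varied widely among libraries of a group. At 3 weeks it had 23.4, 18.2 and 21.8 CPM in WT and 10.4, 16.4, 20.2 and 13.2 CPM in SgshKO. By 8 months WT had 4.79, 6.01, 13.8 and 17.0 CPM, and SgshKO ran from 10.9 to 21.0 with a median of 17.9 CPM. The mean was thus lower in SgshKO at 3 weeks and higher at 8 months, and the groups overlapped at both ages. The difference at 3 weeks did not pass (-0.50 ± 0.33, adjusted p = 0.473) and that at 8 months did (0.71 ± 0.28, 0.0480). The call at 8 months rests on the 2 low WT libraries, since it was 0.48 (adjusted p = 0.193) without WT replicate 1 and 0.51 (0.193) without replicate 2. It was also lost without SgshKO replicate 1, 2, 3, 6 or 7 (adjusted p of 0.0609 to 0.0849), with TPM (0.0569 and 0.0619), with RLE factors (0.0520), in a fit of the 8-month libraries alone (0.0705), and without the libraries above 1000 CPM of neutrophil transcripts (0.59, adjusted p = 0.118). The change of the genotype difference from 3 weeks to 8 months was 1.21 ± 0.43 (adjusted p = 0.0851).

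**Figure D1:**
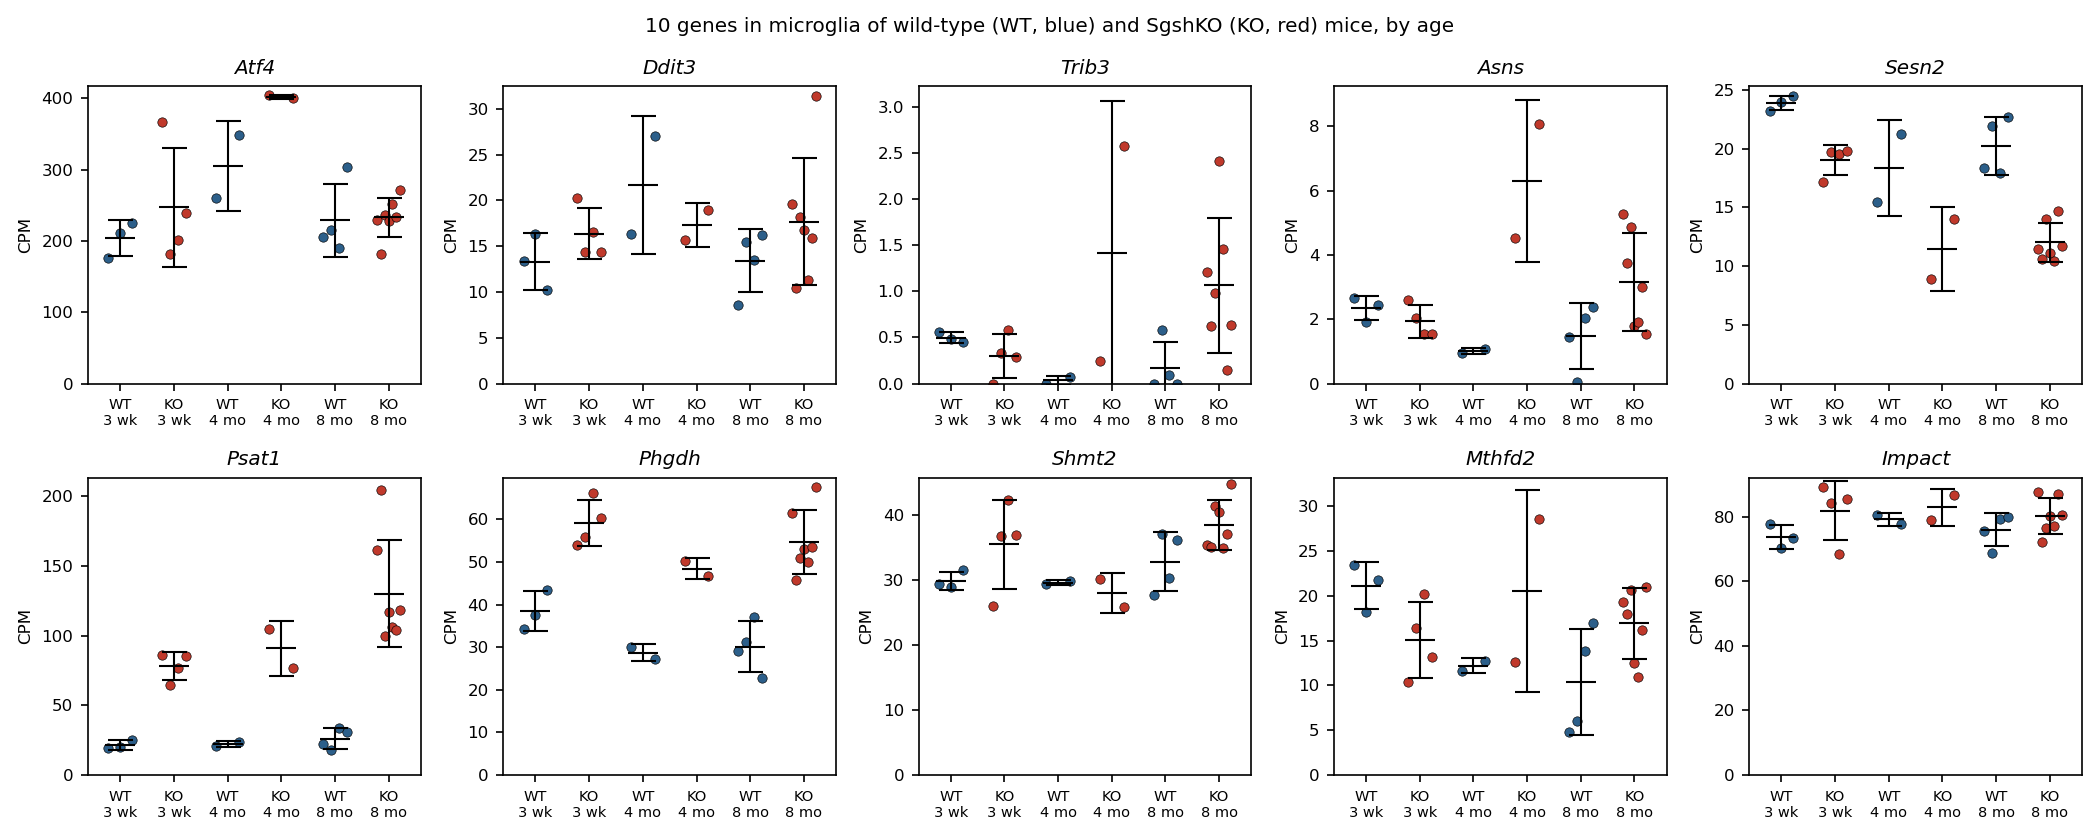
Level of each gene (CPM, vertical axis, from 0) in each library of the age series, with WT libraries in blue and SgshKO in red; bars show the mean and SD. Psat1 and Phgdh do not overlap between genotypes at any age, Sesn2 lies lower in SgshKO, and Atf4, Ddit3, Shmt2 and Impact overlap at 3 weeks and 8 months.

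Among the stress effectors, Sesn2 moved against the direction of the serine genes. Sesn2 encodes sestrin 2, a leucine sensor that restrains mTORC1 and is known as an Atf4 target. It had 23.2, 24.0 and 24.5 CPM in WT and 17.1, 19.7, 19.6 and 19.8 CPM in SgshKO at 3 weeks, and 15.5 and 21.2 against 8.92 and 14.01 CPM at 4 months. At 8 months WT had 18.4, 21.97, 17.9 and 22.7 CPM, and SgshKO ran from 10.5 to 14.7 with a median of 11.5 CPM. The groups did not overlap at any age, and the difference at 3 weeks did not pass (-0.33 ± 0.16, adjusted p = 0.264). It was -0.67 ± 0.22 (adjusted p = 0.0315) at 4 months and -0.75 ± 0.13 (5.42e-05) at 8 months. The 4-month difference no longer passed when WT replicate 2 (-0.40, adjusted p = 0.429) or SgshKO replicate 1 (-0.43, 0.264) was left out, in a fit of the 4-month libraries alone (-0.68, 0.174), or with no filter on low counts (-0.66, 0.0698). Within SgshKO, Sesn2 fell by 0.66 ± 0.13 on the log2 scale from 3 weeks to 8 months (adjusted p = 0.000411). The dissociation-response sum was also lower in SgshKO at 8 months, and its part in this difference was not tested. Without the libraries above 1000 CPM of neutrophil transcripts Sesn2 was at -0.79 (adjusted p = 5.70e-05) at 8 months. The SgshKO libraries kept still held more of these transcripts than WT, so the part of neutrophil RNA was not tested here either.

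Asns (asparagine synthetase) and Trib3 (a pseudokinase induced by Atf4 and Chop) were scarce in all libraries. Asns had 2.67, 1.93 and 2.46 CPM in WT and 2.61, 2.04, 1.55 and 1.53 CPM in SgshKO at 3 weeks. At 4 months it had 0.946 and 1.08 CPM against 4.52 and 8.08 CPM, a log2 fold change of 2.63 ± 0.85 (adjusted p = 0.0295). At 8 months WT had 1.46, 0.0485, 2.03 and 2.39 CPM, and SgshKO ran from 1.54 to 5.26 with a median of 3.02 CPM (1.13 ± 0.51, adjusted p = 0.0833). The 4-month call rests on each of 3 libraries: leaving out either WT library of that age gave an adjusted p of 0.159 or 0.160, and leaving out its SgshKO replicate 2 gave 0.188. It was also lost with TPM and a pseudocount of 0.1 (0.0529). The SgshKO libraries of 4 months held 3018 and 14885 CPM of neutrophil transcripts, the higher sum being in replicate 2, which also had the higher Asns. The part of other cells in this difference was not tested.

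Trib3 had 8 reads in each of the 3 WT libraries of 3 weeks and 0 to 7 reads in the SgshKO libraries. The WT libraries of 4 months had 0 and 1 reads and the SgshKO libraries 2 and 30 reads, a difference that did not pass (adjusted p = 0.0754) but was called by DESeq2 (0.0419). The 8-month WT libraries had 0, 12, 2 and 0 reads and the SgshKO libraries 33, 9, 26, 35, 26, 3 and 7 reads, or at most 0.582 CPM against 0.141 to 2.41 CPM. The log2 fold change at 8 months, 2.49 ± 1.005, had an adjusted p of 0.0509. This lies near the threshold, and several alternatives passed it. Without WT replicate 2 the value was 4.51 (adjusted p = 0.00756), and DESeq2 called the difference (2.56, adjusted p = 0.0174). It also passed without SgshKO replicate 2 (0.0464) or 6 (0.0343), in a fit of the 8-month libraries alone (0.0444), and with the replicate number as a block (0.0316).

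Atf4 had 176, 211 and 225 CPM in WT at 3 weeks and 367, 182, 201 and 239 CPM in SgshKO. It had 260 and 349 against 404 and 399.9 CPM at 4 months. At 8 months WT had 205, 216, 189 and 304 CPM, and SgshKO ran from 181 to 271 with a median of 234 CPM. The groups overlapped at 3 weeks and 8 months, and did not with 2 libraries each at 4 months. The log2 fold change was 0.28 ± 0.19 (adjusted p = 0.479), 0.40 ± 0.24 (0.275) and 0.03 ± 0.15 (0.900). The SgshKO library with 367 CPM is replicate 1 of 3 weeks. That library and those of 4 months had the high dissociation-response sums given above. Between genotypes at 4 months the sum was higher in WT (24458 to 31264 CPM against 17383 to 19976), while Atf4 was higher in SgshKO. The part of the dissociation response in the Atf4 levels was not tested. Over the 22 libraries the genes whose log2 CPM, centred on its mean, lay closest to that of Atf4 were Brd2, Ncl and Hmgb1, with root mean square differences of 0.18, 0.22 and 0.23. The median over all genes was 0.53, and the SD of Atf4 itself 0.35.

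Ddit3 ran from 8.60 to 27.04 CPM in WT and from 10.4 to 31.3 in SgshKO libraries over all ages, with log2 fold changes of 0.30, -0.33 and 0.39 (adjusted p of 0.674, 0.606 and 0.201). Impact, which binds Gcn1 and thereby restrains Gcn2, was steady: 70.2 to 77.7 CPM in WT and 68.5 to 89.2 in SgshKO at 3 weeks, and 68.9 to 80.04 against 72.3 to 87.8 CPM at 8 months. Its log2 fold changes were 0.15 ± 0.09, 0.07 ± 0.12 and 0.08 ± 0.08 (adjusted p of 0.409, 0.756 and 0.430).

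Counted together, 2 of 10 members were higher and 0 lower in SgshKO at 3 weeks, beside 5.31% and 3.72% of 14309 genes called in these directions. At 4 months 3 were higher and 1 lower, against 10.3% and 9.26% of all genes. At 8 months 3 were higher and 1 lower, against 21.6% and 18.9%, so the share of members called differs little from that of all genes at this age. The median log2 fold change of the members was 0.20, 0.58 and 0.55, and that of all genes -0.02, 0.02 and 0.02. Leaving out 1 library gave 1 to 4 members called at 4 months, with 1 without WT replicate 2.

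No member passed the test of a changed genotype difference between ages. For 4 months against 3 weeks 3 members had an unadjusted p under 0.05, and for 8 months against 3 weeks 2 did. For 8 against 4 months 0 did, where all 3 tests were made with edgeR. Of all genes, 1.63% were called higher and 0.895% lower in the first of these tests, 5.98% and 3.26% in the second, and 0.259% and 0.133% in the third. DESeq2 called 0, 1 and 0 members, the 1 being Mthfd2 (1.21, adjusted p = 0.0480). In WT from 3 weeks to 8 months edgeR called no member, with 2 at an unadjusted p under 0.05, and 3.02% of all genes were called higher and 4.63% lower. The lowest adjusted p there was that of Mthfd2 (-1.03 ± 0.33, adjusted p = 0.0585), and DESeq2 called that gene (-1.02, adjusted p = 0.0298). In SgshKO over the same interval 1 member was higher (Psat1) and 1 lower (Sesn2), against 15.5% and 15.1% of all genes.

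Levels can be compared between genes per length, in the authors' TPM. At 8 months Atf4 stood highest, at 247 ± 59.3 TPM (SD, n = 4) in WT and 228 ± 21.9 TPM (n = 7) in SgshKO. In WT, Impact followed (33.9 ± 3.10 TPM), then Phgdh (25.3 ± 4.82), Ddit3 (23.2 ± 5.61), Shmt2 (22.4 ± 3.18) and Psat1 (18.9 ± 5.57), 4 neighbours within their SD. Sesn2 (11.99 ± 1.55), Mthfd2 (7.95 ± 4.64), Asns (1.22 ± 0.855) and Trib3 (0.128 ± 0.210) lay lower. In SgshKO, Psat1 took the second place with 85.8 ± 27.7 TPM, above Phgdh (41.6 ± 4.78) and Impact (32.4 ± 2.17).

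**Figure D2:**
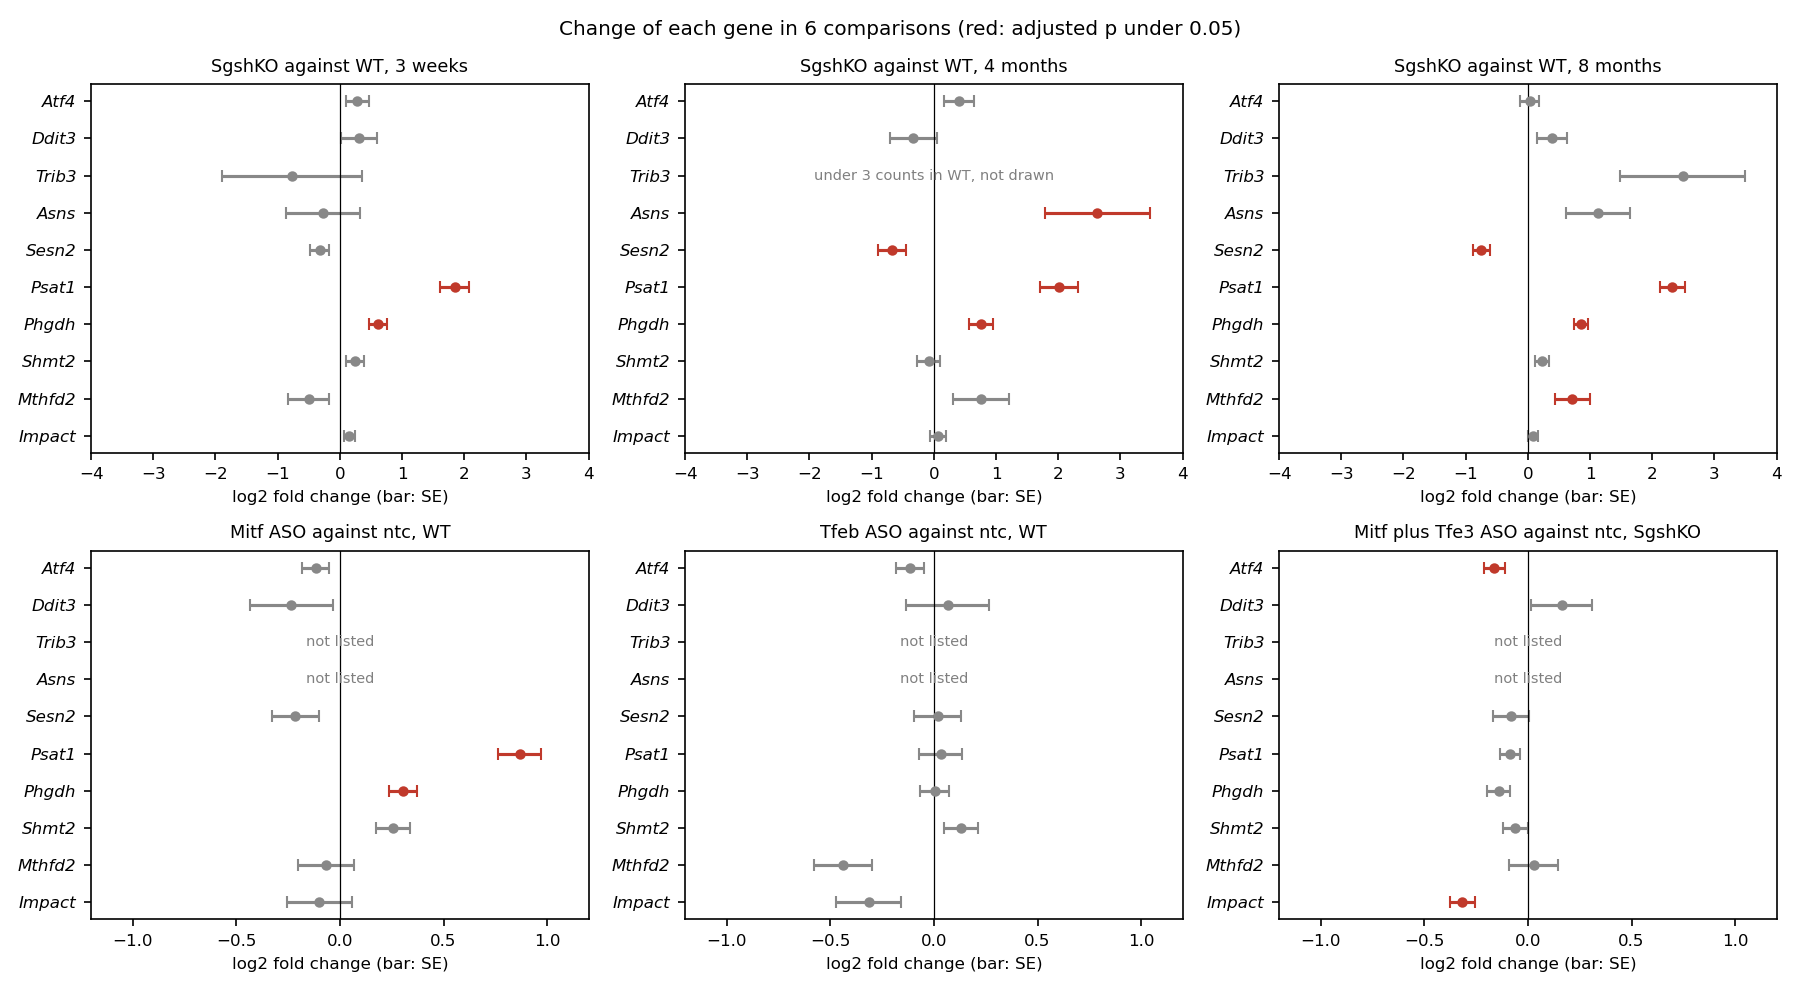
Log2 fold change of each gene (horizontal axis; bars show the SE, and the scale of the upper panels is wider) in the 3 genotype and 3 ASO comparisons, in red where the adjusted p is under 0.05; Trib3 at 4 months is not drawn, with under 3 reads in WT. Psat1 and Phgdh are red in the 3 genotype comparisons and with the Mitf ASO, and Impact and Atf4 with the combination in SgshKO.

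The surrounding pathway was read from lists written for this work. None of 19 tested genes for eIF2alpha kinases, the eIF2alpha phosphatase, the eIF2 and eIF2B subunits and their partners was called at 3 weeks. At 8 months 1 was higher and 5 were lower: Eif2ak2 (Pkr, the kinase that senses double-stranded RNA) rose by 0.40 ± 0.12 (adjusted p = 0.0108), while Eif2b4 (-0.68 ± 0.11, 3.73e-05), Abce1 (-0.41 ± 0.07) Eif2ak4 (Gcn2 itself, -0.52 ± 0.09, 5.66e-05), Ppp1r15b (-0.31 ± 0.09) and Gcn1l1 (-0.22 ± 0.07, 0.0138) fell. Gcn1l1 encodes Gcn1, the activator of Gcn2 to which Impact binds, and was lower at 4 months too (-0.60 ± 0.11, adjusted p = 0.000494). Ppp1r15b and Gcn1l1 are named at 8 months after their values had been seen. The median of this list was -0.10 against 0.02 over all genes. Of the ASO targets, Mitf was higher in SgshKO at each age with no overlap. It had 53.1 to 73.2 CPM against 42.7 to 46.1 in WT at 3 weeks, and 88.6 to 90.2 against 57.6 to 59.5 at 4 months. At 8 months Mitf had 73.6 to 101 against 44.1 to 55.8 CPM. Tfeb and Tfe3 overlapped between genotypes at 3 weeks and 8 months, and lay lower in SgshKO at 4 months.

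Of 18 other enzymes of serine, glycine and one-carbon metabolism none was called at 3 weeks or 4 months. At 8 months Aldh1l1 (2.15 ± 0.35, adjusted p = 2.73e-05), Mthfd1l (0.75 ± 0.20, 0.00430) and Aldh1l2 (0.65 ± 0.22, 0.0222) were higher, and Mtr, the methionine synthase, was lower (-0.35 ± 0.07). Aldh1l1 is also a marker of astrocytes. It rose from 0.883 to 3.93 CPM, and the part of astrocyte RNA in this was not tested. Of 20 other amino acid enzymes 1, 4 and 7 were higher and 0, 1 and 2 lower at the 3 ages. Got1, the cytosolic aspartate aminotransferase, was the one called at 3 weeks (1.01 ± 0.14, adjusted p = 2.35e-05) and stood at 1.65 ± 0.19 and 1.78 ± 0.12 later, from 22.06 to 76.0 CPM at 8 months. Glul, the glutamine synthetase, fell by 1.09 ± 0.12 at 8 months (adjusted p = 8.69e-08).

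Amino acid transporters moved both ways. Of 20, 2, 2 and 5 were higher and 2, 5 and 7 lower at 3 weeks, 4 months and 8 months. Slc38a6 was higher at each age (0.97, 1.07 and 0.93), and Slc1a5 and the cystine carrier Slc7a11 at 8 months (1.15 ± 0.19 and 1.47 ± 0.30). Slc7a8 (-0.51, -0.95 and -0.79) and the neutral amino acid carrier Slc1a4 (-1.33, -2.04 and -1.78) were lower at each age, and Slc3a2, the heavy chain that pairs with Slc7a8 and Slc7a11, was lower at 8 months (-0.56 ± 0.08). The medians of this list were -0.06, -0.22 and -0.19.

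Of 19 tested aminoacyl-tRNA synthetases and related genes, 6 were higher and 4 lower at 8 months, led by Eprs (0.45 ± 0.07), Sars (0.54 ± 0.09) and Gars (0.48 ± 0.09) and by Xpot (-0.64 ± 0.06), the tRNA exporter, Nars (-0.33) and Iars (-0.38). Of 20 further stress factors and Atf4 targets tested, 8 were higher and 6 lower at 8 months. Cdkn1a (1.48 ± 0.23), Gadd45a (1.70 ± 0.31) and Ndrg1 led the increases, the last from 0.0118 to 1.42 CPM. Txnip (-1.05 ± 0.09), Sesn1 (-0.98 ± 0.12) and the mTORC1 inhibitor Ddit4 (-2.45 ± 0.32) led the decreases. At 3 weeks Atf3 (2.58 ± 0.56, adjusted p = 0.00315), Nfe2l2 (0.52 ± 0.11) and Pmaip1 (1.17 ± 0.33) were higher and Txnip (-0.38 ± 0.11) and Sesn1 (-0.50 ± 0.15) lower. At that age the dissociation-response sum reached 31051 CPM in a single SgshKO library, against at most 13013 CPM in WT. The part of that library and of the dissociation response in these differences was not tested.

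Of 22 genes for chaperones of the endoplasmic reticulum and the Atf6 and Xbp1 arm, 1, 2 and 6 were higher and 0, 1 and 2 lower at the 3 ages. Sdf2l1 (1.03 ± 0.12), Calr (0.37 ± 0.06) and Canx (0.39 ± 0.06) led at 8 months, and Atf6 itself was lower (-0.35 ± 0.07). Of 11 genes of mitochondrial stress, 4 were higher and 2 lower at 8 months, among them the chaperone Hspa9 (0.26 ± 0.08) and the polymerase Polg (-0.56 ± 0.08). The counts of these lists lie beside the 21.6% and 18.9% of all genes called at 8 months. The summed neutrophil transcripts moved with genotype at this age too, and their part in the lists was not tested.

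In WT mice the Mitf ASO changed the same pair of serine genes. Psat1 had 68.4, 45.3, 68.6 and 55.5 CPM in the ntc libraries and 158, 96.3, 89.7 and 94.02 CPM in the Mitf ASO libraries, in the order of grp 1 to 4, a number the sample titles carry. Every Mitf ASO library lay above every ntc library. The difference was 0.87 ± 0.10 (adjusted p = 3.48e-05), or 1.82 times the ntc level. The PBS libraries had 59.2, 40.9, 45.9 and 44.2 CPM, lower than ntc by 0.32 on the log2 scale, a difference that did not pass (adjusted p = 0.999995). Phgdh had 148, 95.6, 111 and 91.4 CPM with ntc and 199, 129, 122 and 106 CPM with the Mitf ASO. It was higher in the Mitf ASO library in each of the 4 grp, and the groups overlapped. The difference of 0.31 ± 0.07 (adjusted p = 0.00713) was found with grp in the model and lost without it (0.32, adjusted p = 0.596).

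Shmt2 was at 28.7, 24.6, 24.9 and 26.7 CPM with ntc and at 34.8, 31.5, 30.5 and 29.0 CPM with the Mitf ASO, so every Mitf ASO library lay above every ntc library. It missed the threshold (0.26 ± 0.08, adjusted p = 0.0525), and was called by DESeq2 (0.26, adjusted p = 0.0389), against PBS (0.27, 0.0302) and without ntc replicate 4 (0.32, 0.0312). Atf4 (-0.12 ± 0.07, adjusted p = 0.285), Ddit3 (-0.23 ± 0.20), Sesn2 (-0.22 ± 0.11, 0.244), Mthfd2 (-0.07 ± 0.14) and Impact (-0.10 ± 0.16) did not pass. The ntc libraries were also those used to choose Impact, so its test here is not free of that choice. Over the alternatives, PBS as the reference among them, Impact ran from -0.19 to 0.34. In all 2 of 8 members were higher and 0 lower, against 5.77% and 5.21% of 10277 genes.

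The 2 serine genes also differed between the Mitf and the Tfeb ASO, in a comparison added after the data had been seen. Psat1 was higher with the Mitf ASO by 0.83 ± 0.10 (adjusted p = 0.000170) and Phgdh by 0.30 ± 0.07 (0.0193). These were 2 of 8 members higher and 0 lower, against 1.67% and 1.86% of all genes. With the Tfeb ASO against ntc, Psat1 had 79.9, 49.3, 58.6 and 56.5 CPM (0.03 ± 0.10). No member was called for that ASO by edgeR or DESeq2, 1 had an unadjusted p under 0.05, and 0.564% of all genes were higher and 0.214% lower. That member was Mthfd2 (-0.44 ± 0.14, adjusted p = 0.170), which was called against PBS (-0.56, 0.0322). Impact (-0.31 ± 0.16, adjusted p = 0.373) was again set against the ntc libraries used to choose it.

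For ntc against PBS, edgeR called 0% of all genes higher and 0% lower, 415 genes had an unadjusted p under 0.05, and DESeq2 called 2 genes. No member was called by either, and 2 had an unadjusted p under 0.05, namely Psat1 (0.32 ± 0.10) and Impact (0.43 ± 0.16). Impact was chosen for its lower level with the Tfe3 ASO than in these same ntc libraries, so its p here is not free of that choice. Its value ran from 0.15 to 0.56 when single libraries were left out.

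Around the members, the Mitf ASO raised Got1 (0.41 ± 0.09, adjusted p = 0.00611), with 3 of 14 other amino acid enzymes higher and 0 lower. Among 18 transporters 1 was higher and 2 were lower, the latter Slc7a8 (-0.27 ± 0.06, adjusted p = 0.00535) and Slc3a2 (-0.23 ± 0.05, 0.00828). Of 15 stress factors 5 were higher and 1 lower, with Pmaip1 (0.64 ± 0.16), Atf3 (0.34 ± 0.09) and Eif4ebp1 (0.36 ± 0.10) among the first and Txnip (-0.42 ± 0.06, adjusted p = 0.000239) the last. None of the 13 other serine and one-carbon enzymes was called. Of 19 synthetases Sars (0.22 ± 0.06) and Wars (0.19 ± 0.05) were higher, and of 22 chaperone genes Canx (0.24 ± 0.04), Calr (0.22 ± 0.06) and Sdf2l1 (0.39 ± 0.12). The phosphatase subunit Ppp1r15b was the 1 of 19 eIF2alpha genes called (-0.22 ± 0.06, adjusted p = 0.0206). The summed transcripts of the 3 astrocyte markers listed in this table were 219 to 336 CPM with ntc and 248 to 306 CPM with the Mitf ASO. The microglial sum was lower with the Mitf ASO (62756 to 66539 CPM) than with ntc (67173 to 71106 CPM), and so was the dissociation-response sum (2612 to 2756 against 2881 to 3862 CPM), both with no overlap. Their part in the differences of Psat1, Phgdh and Shmt2 was not tested.

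**Figure D3:**
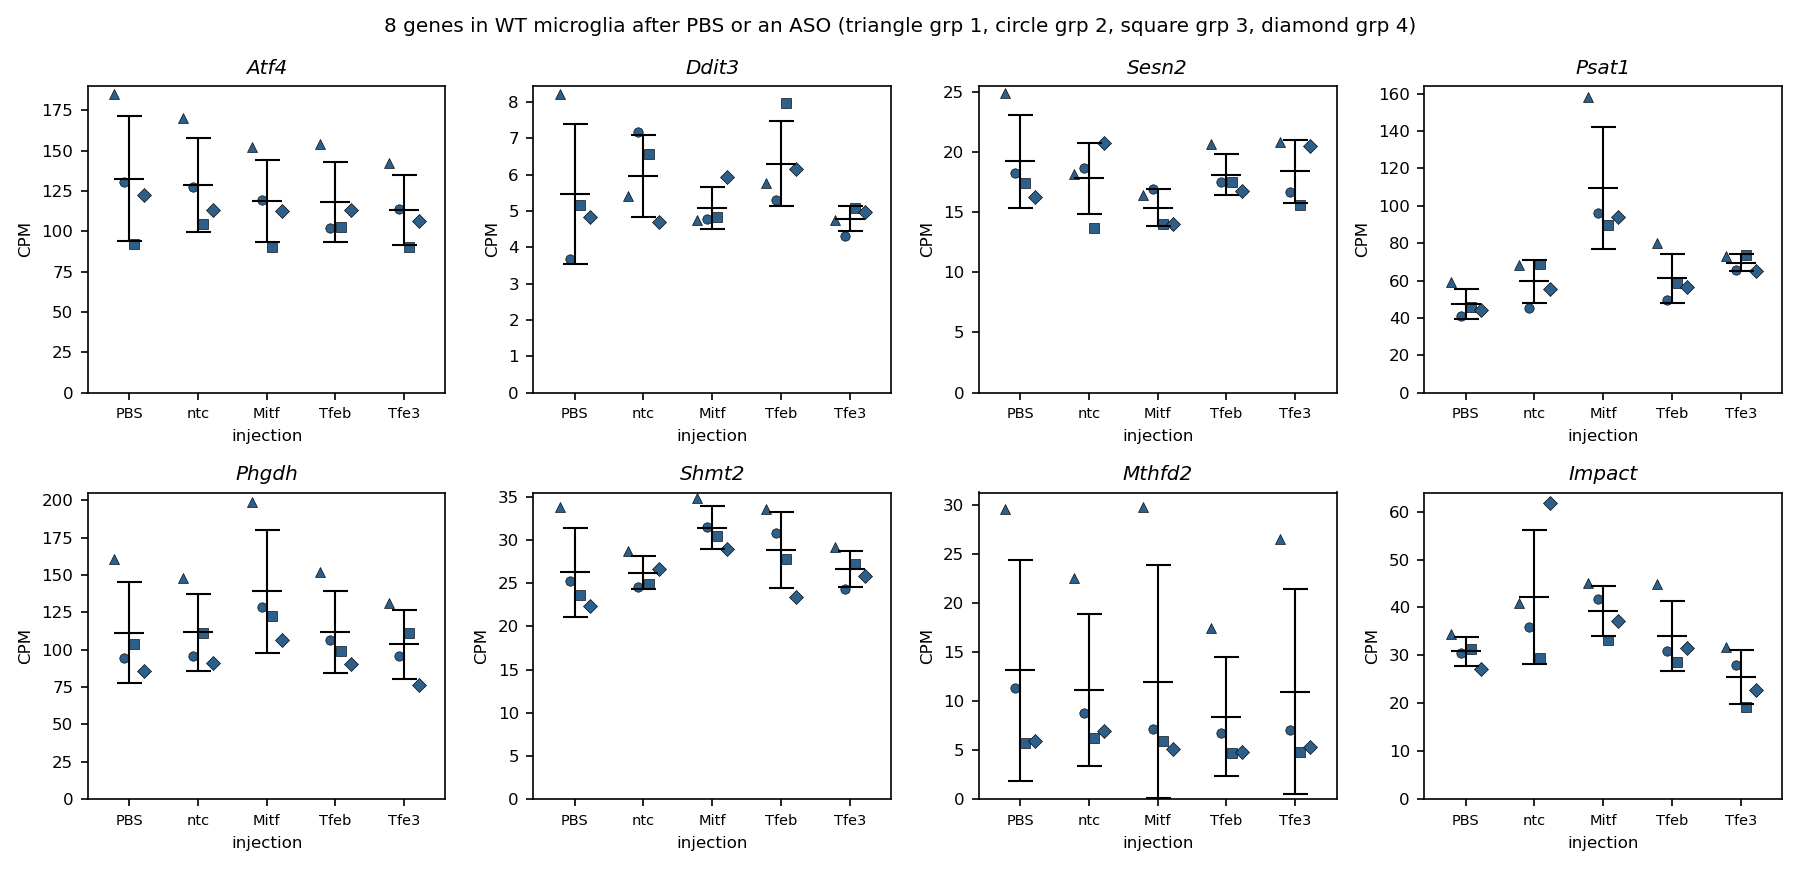
Level of each gene (CPM, vertical axis, from 0) in WT libraries by injection; the marker gives grp, and bars the mean and SD. Psat1 is high in the 4 Mitf ASO libraries, the Mthfd2 libraries of grp 1 (triangles) stand apart in every treatment, and the mean of Impact is lowest with the Tfe3 ASO.

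Mthfd2 in the WT ASO libraries differed more between the values of grp than between injections. With PBS, ntc, Mitf, Tfeb and Tfe3 in that order, the grp 1 libraries had 29.6, 22.6, 29.8, 17.4 and 26.5 CPM. The 15 libraries of grp 2 to 4 lay between 4.66 and 11.3 CPM. In a comparison added after these values had been seen, grp 1 was higher than the mean of the others by 1.99 ± 0.09 (adjusted p = 1.30e-10). Grp 1 is a single value of grp, so the p-values of this comparison measure the spread between libraries within grp. They do not measure the spread between values of grp. Atf4 (0.56 ± 0.05, adjusted p = 7.81e-08), Phgdh (0.64 ± 0.05, 2.40e-08), Psat1 (0.44 ± 0.07), Shmt2 (0.28 ± 0.06), Impact (0.30 ± 0.11) and Sesn2 (0.25 ± 0.08) were higher in grp 1 as well. Thus 7 of 8 members were higher and 0 lower, against 22.6% and 21.3% of all genes, and Ddit3 did not pass (0.10 ± 0.15). Mthfd2 is among the 7, and since its values had led to this comparison, its call is not an independent test. Atf4 had 142 to 185 CPM in grp 1 and 90.2 to 130 CPM elsewhere, with no overlap. The labels do not say what grp stands for. The dissociation-response sum was 2620 to 3862 CPM in grp 1 and 2537 to 3337 CPM in the others, and the endothelial sum 51.5 to 61.1 against 54.03 to 109 CPM.

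Impact (chromosome 18, 12971923 to 12992950) was chosen for its level with the Tfe3 ASO, so these values are a description with no test. It had 41.0, 36.01, 29.5 and 61.9 CPM with ntc and 31.8, 28.0, 19.1 and 22.7 CPM with the Tfe3 ASO. It was lower with the Tfe3 ASO in each grp, and the groups overlapped. The log2 fold change was -0.73 ± 0.16. Replicate 4 of ntc was the highest of the 20 libraries, and without it the value was -0.45. Against PBS, where Impact had 34.5, 30.5, 31.3 and 27.2 CPM, it was -0.30. In the same contrast Psat1 was at 0.24 ± 0.10, Atf4 at -0.18 ± 0.07, Ddit3 at -0.32 ± 0.20, Mthfd2 at -0.19 ± 0.14 and Phgdh at -0.11 ± 0.07. Across the 20 WT ASO libraries the genes closest to Impact in centred log2 CPM were Irak3, Rabl2 and Fam83g. Their root mean square differences were 0.24, 0.25 and 0.26 (0.40 is the median over all genes). The SD of Impact itself was 0.36.

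The rule that chose Impact used the WT libraries of the Tfe3 ASO and not the SgshKO libraries. The genes were nonetheless chosen with earlier results of these data known, so the test below may not be free of selection. With ntc Impact had 61.7, 62.5, 60.4 and 58.8 CPM in grp 1 and 59.0, 58.1, 57.1 and 59.7 CPM in grp 2. With the Mitf and Tfe3 ASOs it had 37.4, 48.6, 49.4 and 42.01 CPM in grp 1 and 52.4, 53.7, 48.1 and 51.8 CPM in grp 2. All 8 libraries of the combination lay below all 8 ntc libraries. The log2 fold change was -0.32 ± 0.06 (adjusted p = 0.00371), or 0.803 times the ntc level, and it passed in each of the 16 fits that left out 1 library. Within grp 2 alone it was -0.20 (adjusted p = 0.0703), and the difference of the effect between the 2 grp did not pass (0.27 ± 0.10, adjusted p = 0.211). Since both factors were lowered together, the design does not tell the Tfe3 from the Mitf ASO here. Over these 16 libraries the genes closest to Impact were Rragc, Utp15 and Slc16a10. Their root mean square differences were 0.09 each, against a median of 0.27 over all genes and an SD of 0.20 for Impact itself. Rragc encodes RagC, a GTPase that recruits mTORC1 and MiT/TFE factors to the lysosome.

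Atf4 ran from 81.4 to 98.3 CPM with ntc (median 94.1) and from 74.1 to 89.02 CPM with the combination (median 83.9). The ranges overlapped, and the difference was -0.16 ± 0.05 (adjusted p = 0.0472). It was lost in 13 of the 16 fits that left out 1 library (adjusted p up to 0.103), with RLE factors (0.0610), and with the replicate number as a block (0.0617). Psat1 ran from 231 to 314 CPM with ntc and from 231 to 295 with the combination (-0.09 ± 0.05, adjusted p = 0.296), and Phgdh from 157 to 189 and from 127 to 188 CPM (-0.14 ± 0.06, 0.121). Sesn2, Shmt2, Ddit3 and Mthfd2 did not pass either, with log2 fold changes of -0.08, -0.06, 0.16 and 0.03. In all 0 of 8 members were higher and 2 lower, against 4.84% and 4.5% of 10589 genes.

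Around the members, Got1 fell with the combination by 0.21 ± 0.04 (adjusted p = 0.00438), as 1 of 15 other amino acid enzymes lower and 1 higher. Of 18 transporters 0 were higher and 3 lower, namely the arginine carrier Slc7a1 (-0.48 ± 0.09, adjusted p = 0.00391), Slc38a2 (-0.19 ± 0.05) and Slc38a7 (-0.26 ± 0.07). Of 19 eIF2alpha genes Eif2ak2 was higher (0.39 ± 0.09, adjusted p = 0.0112) and Ppp1r15b lower (-0.22 ± 0.05, 0.00727). None of the 16 stress factors was called. The summed transcripts of the 6 neutrophil markers in this table ran from 1.03 to 564 CPM with ntc and from 0.996 to 358 CPM with the combination.

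Members also differed between grp 1 and grp 2 of these libraries, in a comparison added after the data had been seen. Each side is a single value of grp, so the p-values measure the spread between libraries within grp, and not between values of grp. Mthfd2 was higher in grp 2 (0.34 ± 0.12, adjusted p = 0.0438), and Ddit3 (-0.68 ± 0.15, 0.00277), Psat1 (-0.23 ± 0.05, 0.00262), Shmt2 (-0.19 ± 0.06) and Phgdh (-0.16 ± 0.06) were lower. These are 1 of 8 members higher and 4 lower, against 12.6% and 11.6% of all genes.

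**Figure D4:**
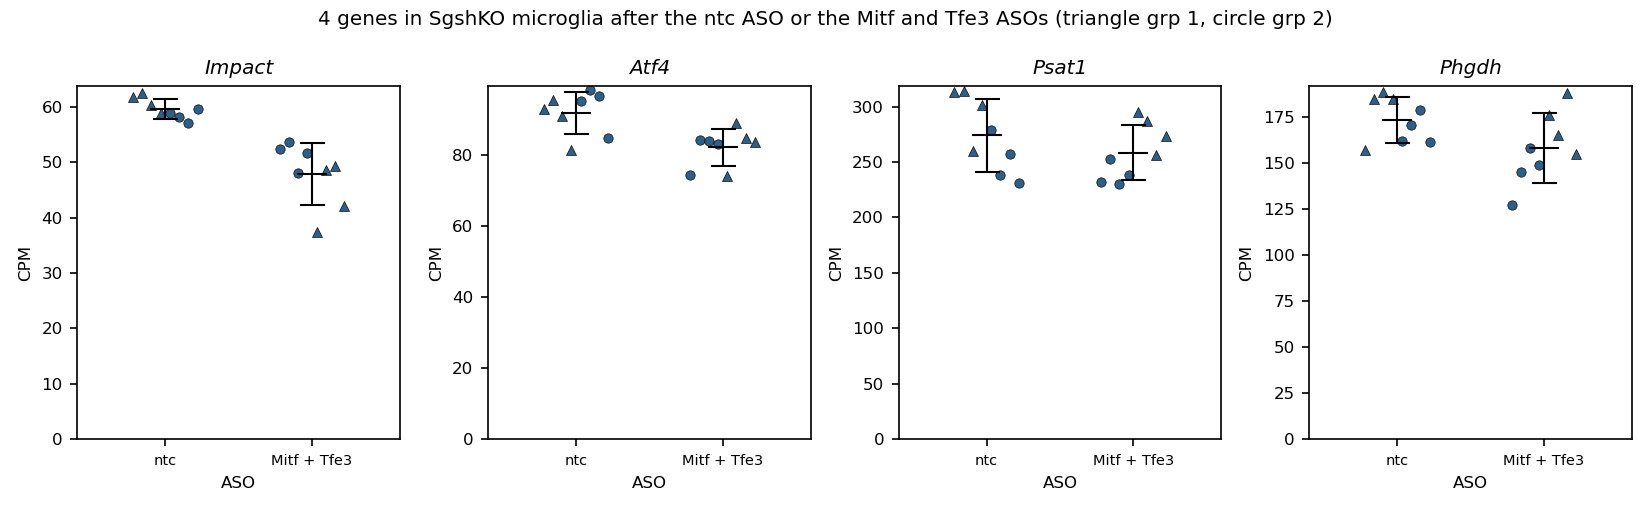
Level of Impact, Atf4, Psat1 and Phgdh (CPM, vertical axis, from 0) in SgshKO libraries with the ntc ASO or the Mitf and Tfe3 ASOs; the marker gives grp, and bars the mean and SD. All 8 Impact values of the combination lie below the 8 of ntc, while the other 3 genes overlap.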

How the data were processed

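The 10 genes and all gene lists were chosen with earlier results of these data known. The authors deposited raw read counts per gene for each of 3 sets of libraries, with TPM for the age series and a batch-corrected signal for the ASO libraries. The ASO tables list only part of the genes, those of low counts being absent. The submitters' processing notes name STAR 2.5.3a, kallisto 0.44.0, HOMER 4.11, DESeq2 1.36.0, R 4.2.3 and mm10, and which tool made which table is not given in the sources used here. Deposited TPM (per length) and the deposited batch-corrected signal served as alternatives, and TPM also for levels between genes.

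The deposited counts were fitted with edgeR 4.0.16 (R 4.3.3): TMM scaling, genes kept by filterByExpr at a count of 10, the quasi-likelihood test and Benjamini-Hochberg adjustment over all genes tested, with a threshold of 0.05. The age series (22 libraries) had 1 model of 6 groups, and the 20 WT and 16 SgshKO ASO libraries each a model of group and grp. For PBS replicate 4 the title says grp 4 and the column name grp 3, and the title was followed. The replicate numbers of the WT ASO libraries are those grp numbers, and in them 38 of 40 pairs of libraries with the same number deviated together (r over 0.1). The test was checked on simulated counts with known changes.

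Alternatives were RLE factors, DESeq2 1.42.0, other count filters, limma 3.58.1 on log2 of TPM (pseudocounts 1 and 0.1) or of signal (1 and 10), the block or grp term, the reference group, and leaving out each library. Named genes are the 10 members, from each list up to 3 genes higher and 3 lower with the lowest adjusted p among those called, and for Impact and Atf4 the 3 genes with the smallest root mean square difference in centred log2 CPM. The Tfe3 ASO comparison chose Impact, so no test is given for it. The other tests of Impact in the WT ASO libraries use the same ntc libraries and are not free of that choice.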

Additional observations from a re-analysis of the deposited data

Results flagged for a closer look

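Single libraries stood apart from the rest of their group in 8 of 86 groups of 4 to 10 libraries, by the gap to the nearest library relative to the whole range. Chance alone marks about 1 in 20 groups. Mthfd2 accounts for 4 of them, each time replicate 1 of a WT ASO group, which is grp 1. It had 22.6 CPM with ntc where the next library had 8.74, 29.8 with the Mitf ASO (next 7.17), 17.4 with the Tfeb ASO (next 6.76) and 26.5 CPM with the Tfe3 ASO (next 7.05). Psat1 in Mitf ASO replicate 1, also grp 1, had 158 CPM against 96.3 in the next. Ddit3 in Mitf ASO replicate 4 had 5.95 CPM against 4.83. In the age series, Trib3 in WT replicate 2 of 8 months had 0.582 CPM against 0.0944 in the next, and Sesn2 in SgshKO replicate 1 of 3 weeks had 17.1 CPM, below the next lowest of 19.6.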

How the results depend on the processing

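The number of members called stayed within 1.5 times its value in 184 of 212 comparisons with an alternative. The genotype effect of 8 months against 3 weeks had 1 member called in place of 0 with DESeq2 and with no filter on low counts, and WT of 8 months against 3 weeks likewise had 1 and 1. The Mitf ASO had 1 called with no replicate block, and the Tfeb ASO 1 with PBS as the reference. The combination in SgshKO had 1 called with RLE factors, 1 with the replicate block, 1 with no grp term, 1 in grp 1 alone and 0 in grp 2 alone. Leaving out each library gave 1 to 4 members at 4 months, 0 to 1 for the genotype effect of 8 months against 3 weeks, 0 to 2 for WT of 8 months against 3 weeks, and 1 to 2 for the combination. The cause of these shifts was not tested. No called difference of a member changed sign under an alternative run.

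In the age series same-numbered libraries correlated between -0.171 and 0.115 in their deviations, with 1 of 9 pairs over 0.1. The numbers were not taken to pair them. In the SgshKO ASO libraries the correlations ran from 0.0839 to 0.612, with 5 of 8 pairs over 0.1. Whether the numbers pair those libraries is not settled, and the main fit did not pair them. With the replicate number as a block, Atf4 was no longer called for the combination (adjusted p = 0.0617). The replicate block left 2 and 4 members called at 3 weeks and 4 months and gave 5 at 8 months, with Trib3 added. Only 2 libraries per genotype at 4 months and the few reads of Trib3 and Asns limit those values.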
